A study of Homo sapiens with 40 samples.

Results

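A set of 10 genes for chromatin regulators that are recurrently mutated in lymphoma was followed across 10 established DLBCL lines. DLBCL (diffuse large B-cell lymphoma) is a fast-growing cancer of mature B cells. The genes are KMT2D, KMT2C, KMT2A, CREBBP, EP300, ARID1A, SMARCA4, NSD2, SETD2 and DOT1L, which makes 10 of the 19775 genes with a probe set annotated to 1 symbol alone. Each gene is represented by whichever of its single-symbol probe sets had the highest mean over all arrays. The GSK126 arrays enter that mean, but fold changes were not used for the choice. The 10 chosen probe sets lay above the array's median on all 40 arrays, and all passed the filter on low values.

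The lines received 500 nM GSK126, a small-molecule inhibitor of the histone methyltransferase EZH2, or 0.1% DMSO as vehicle, over 72 h, and each line has 2 arrays per treatment. Mutant EZH2 is carried by DB, KARPAS-422, Pfeiffer, SU-DHL-4, WSU-DLCL2, SU-DHL-6 and SU-DHL-10, while HT, Toledo and OCI-LY-19 are EZH2 wild type. The growth IC50 in the labels runs from 28 nM in Pfeiffer over 134 nM (WSU-DLCL2), 232 nM (KARPAS-422), 448 nM (SU-DHL-10), 516 nM (HT), 582 nM (SU-DHL-6), 861 nM (DB), 1019 nM (OCI-LY-19) and 4828 nM (SU-DHL-4) to 13786 nM in Toledo, and lines are listed in that order below. The labels do not state the EZH2 allele of each line or the mutations that any line carries in the 10 genes. The arrays of a group are titled biological replicates without saying how cultures were separated, so the p-values within a line measure the spread between such arrays.

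EZH2 is the catalytic subunit of Polycomb repressive complex 2 and methylates lysine 27 of histone H3 at silenced genes. Several of the 10 regulators act on the opposite, active state: KMT2D and KMT2C methylate lysine 4 of histone H3 at enhancers, CREBBP and EP300 acetylate lysine 27, the residue that EZH2 methylates, and the SWI/SNF complex, with its ATPase SMARCA4 and its subunit ARID1A, moves nucleosomes. In germinal centre lymphomas KMT2D and CREBBP are among the most often mutated genes, alongside EZH2 itself.

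For 40 of 40 arrays the closest match was an array from the same line (replicates correlated at 0.982 to 0.989 over the genes tested, other lines at 0.810 to 0.947). The B-cell markers PAX5, CD22, CD79A and CD79B lay above the array median on all arrays, and MS4A1 did so outside OCI-LY-19, where it measured 4.69 to 6.25 on the deposited log2 scale. CD79A was low in Pfeiffer, at 8.66 to 9.29, and CD22 was low in Pfeiffer, DB and Toledo, at 8.87 to 9.73 against 11.75 to 13.48 in the other lines. Of the 6 T and NK cell markers with a probe set, CD3D and CD3G were high in KARPAS-422, and CD8A was high in Pfeiffer, where the epithelial marker EPCAM was high as well. NKG7, CD14 and COL3A1 were above the median on no array, whereas COL1A1 and PECAM1 were above it on all 40. The summed linear signal of the T and NK markers ranged from 85.5 to 13288 on DMSO arrays and from 163 to 15884 on GSK126 arrays, and 0 of the 4 T and NK markers tested responded in any line. Other markers did respond: CD79B rose in 5 lines, MS4A1 rose in 3, CD79A rose in 3 and fell in 1, CD22, PECAM1 and LYZ each rose in 1, and CSF1R fell in 1. What part these shifts have in the members' responses was not tested. Fewer cells of a type and less RNA per cell cannot be told apart in these bulk cultures.

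Under GSK126 80 of the 100 gene-line pairs did not pass the test, and all but 1 of the changes that did lay in the 4 lines with the lowest growth IC50. Calls among all genes were also most frequent in those 4 lines. There 10.9% to 15.4% of all genes rose and 7.15% to 13.4% fell, against at most 7.4% and 3.56% in any other line. NSD2, which dimethylates lysine 36 of histone H3, fell by 43.6% in Pfeiffer. It was lower after treatment in all 10 lines by its representative probe set, though not in Toledo by most of its probe sets. The share of all genes lower in all 10 lines was not counted. CREBBP rose 1.74-fold in KARPAS-422, the line where its vehicle level was lowest. Of the 100 pairs, 4 had risen and 16 had fallen (limma, Benjamini-Hochberg adjusted over all genes tested in a line), against 7.52% risen and 5.13% fallen among all gene-line pairs. Bringing the arrays to equal medians gave 3 risen and 27 fallen among the 100 pairs, against 4.73% and 11.6% of all pairs.

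By line, 6 members fell and 0 rose in Pfeiffer, where 9.95% of all genes tested fell and 14.6% rose. WSU-DLCL2 had 4 fallen and 1 risen (12.7% and 13.9% of all genes), and KARPAS-422 had 2 fallen and 3 risen (13.4% and 15.4%). In SU-DHL-10 3 members fell and 0 rose, with 7.15% and 10.9% of all genes doing so. SU-DHL-6 had 1 fallen member, against 3.56% of all genes. No member passed the test in Toledo, SU-DHL-4, OCI-LY-19, DB or HT, where 0.165%, 2.6%, 2.4%, 3.08% and 9.24% of all genes were called in either direction. The members' median log2 fold change was -0.23 in Pfeiffer, where the median of all genes was 0.06, and between -0.08 and 0.05 in the other lines. The DMSO and GSK126 arrays did not overlap in 64 of the 100 pairs, against 50.7% of all gene-line pairs.

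**Figure D1:**
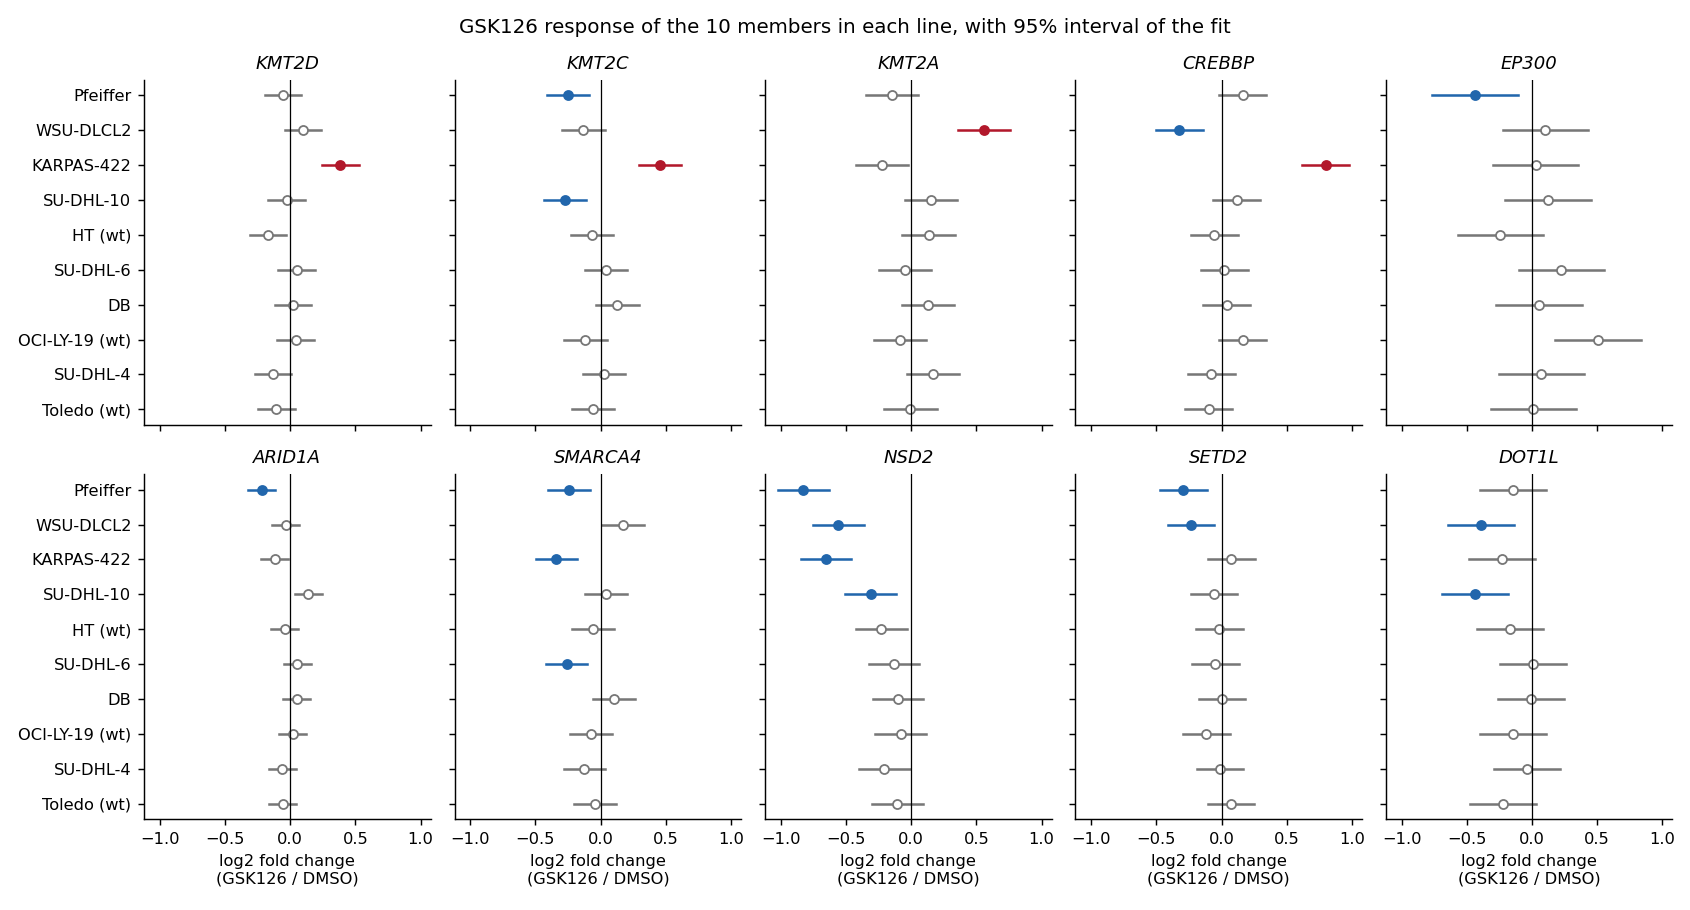
Log2 fold change under GSK126 for each of the 10 genes (panels) in each line (rows, from the lowest growth IC50 at the top; wt marks EZH2 wild type), with the 95% interval of the fit as a bar. Filled blue points had fallen, filled red points had risen and open grey points did not pass the test; the representative probe set of NSD2 lies left of 0 in all 10 lines and CREBBP lies farthest right in KARPAS-422, at 0.80.

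KMT2D and KMT2C are catalytic subunits of the COMPASS-like complexes that mark enhancers, and KMT2A (MLL) is best known for keeping HOX genes active and for its translocations in leukaemia. All 3 rose in 1 line each. KMT2D and KMT2C rose together in KARPAS-422, whereas KMT2A rose in WSU-DLCL2.

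KMT2D measured 10.61 and 10.57 on the DMSO arrays of KARPAS-422 and 10.93 and 11.02 on its GSK126 arrays, on the scale log2(signal + 17.72) that is used for every level below. The groups did not overlap. Its log2 fold change there was 0.39 ± 0.07 (standard error of the fit, as for every ± on a fold change), adjusted p = 6.89e-05. In the other 9 lines KMT2D lay between -0.17 (HT) and 0.10 (WSU-DLCL2). Its 3 tested probe sets were all higher in KARPAS-422, by 0.21 to 0.39, and 1 of the 3, the representative, had risen, against 13.9% of all single-symbol probe sets tested in that line. With arrays at equal medians the change in KARPAS-422 was 0.15 and missed the threshold (adjusted p = 0.087).

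KMT2C was 10.26 and 10.47 in DMSO and 10.87 and 10.77 under GSK126 in KARPAS-422, where all GSK126 values lay above all DMSO values. The change was 0.45 ± 0.08, adjusted p = 5.14e-05. It went the other way in Pfeiffer, from 9.85 and 9.86 to 9.51 and 9.70 (-0.25 ± 0.08, adjusted p = 0.0203), and in SU-DHL-10, from 11.63 and 11.74 to 11.34 and 11.49 (-0.27 ± 0.08, adjusted p = 0.0153). Both falls were free of overlap, and neither survived the omission of single arrays. In Pfeiffer the adjusted p was 0.0778 without DMSO replicate 1, 0.0879 on omitting DMSO replicate 2 and 0.294 on omitting GSK126 replicate 1, which left a change of -0.15. In SU-DHL-10 it was 0.142 on omitting DMSO replicate 2 and 0.213 on omitting GSK126 replicate 1.

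Probe sets of KMT2C disagreed with each other. In Pfeiffer, of 6 tested, 1 had risen (0.51 ± 0.15, adjusted p = 0.0139) and 1, the representative, had fallen, within a range from -0.37 to 0.68, against 11.3% risen and 9.48% fallen among all single-symbol probe sets. As the mean of all probe sets KMT2C measured 0.04 in Pfeiffer, with the opposite sign, 0.22 in KARPAS-422 (adjusted p = 0.110) and -0.08 in SU-DHL-10 (adjusted p = 0.627), where 3 of 6 probe sets were higher. In KARPAS-422 the brightest pair of KMT2C probe sets had both risen, at 0.45 and 0.42.

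KMT2A measured 9.49 and 9.72 in DMSO and 10.14 and 10.19 under GSK126 in WSU-DLCL2, with no overlap. The change was 0.56 ± 0.10, or 1.47-fold, adjusted p = 6.74e-05. In KARPAS-422 it went from 9.36 and 9.39 to 9.15 and 9.14, a change of -0.23 ± 0.10 that did not pass the test (adjusted p = 0.0847) but did with quantile normalization (-0.32, adjusted p = 0.0172) and with equal medians (-0.46, adjusted p = 0.000345). In the other lines it lay between -0.15 and 0.17. Of its 9 tested probe sets 8 were higher in WSU-DLCL2, by up to 0.56, but 1 had risen, against 11.8% of all single-symbol probe sets, and the mean of all of them gave 0.20 (adjusted p = 0.131). Another KMT2A probe set had fallen in Pfeiffer (-0.47) and KARPAS-422 (-0.49).

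Among 14 COMPASS partners and relatives, such as WDR5, ASH2L and KDM6A, 0 to 3 fell and 0 to 2 rose in any line, with medians between -0.06 and 0.11. Of 5 H3K4 demethylases, 0 or 1 rose and 0 or 1 fell in any line. No gene of either list was called in as many as 5 lines. These counts stand beside the shares of all genes given by line above, and none is read as particular to the lists.

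**Figure D2:**
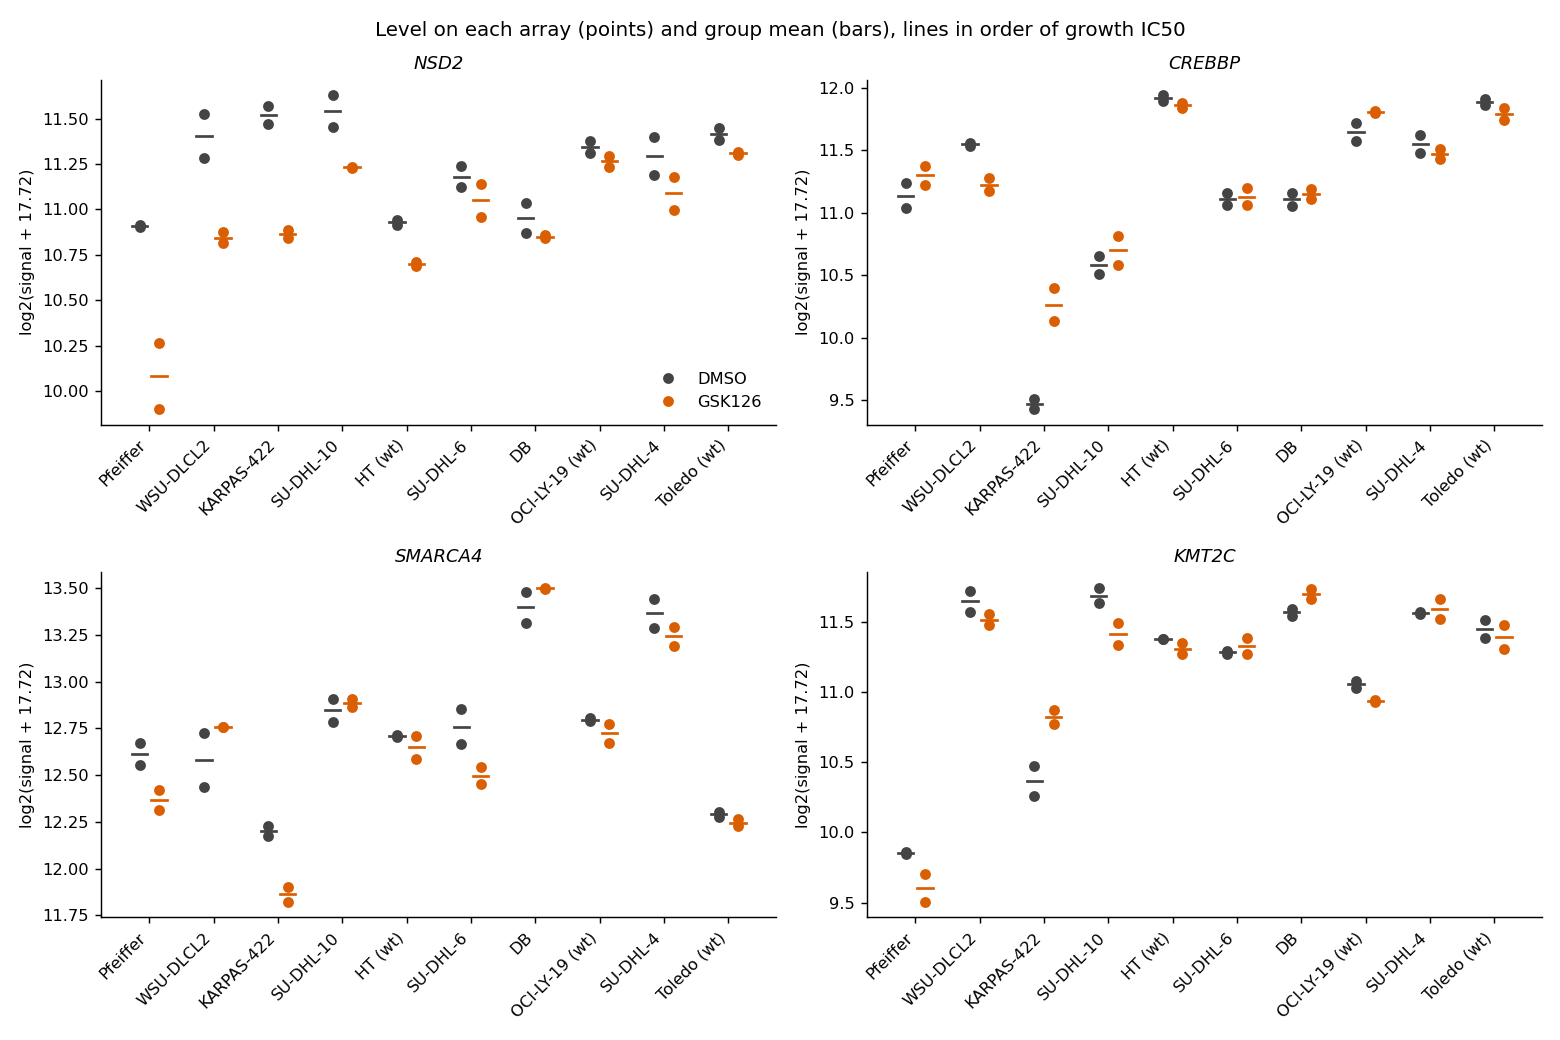
Level on each array (points, log2(signal + 17.72)) and group mean (short bars) for NSD2, CREBBP, SMARCA4 and KMT2C, with DMSO in grey and GSK126 in orange and lines in order of growth IC50. The vertical axis differs between panels and does not start at 0; CREBBP in KARPAS-422 rises from a mean of 9.47 to 10.26 and is still the lowest of the 10 lines.

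CREBBP (CBP) and EP300 (p300) are paralogous acetyltransferases that mark active enhancers, and loss of CREBBP function is known in germinal centre lymphoma for lowering MHC class II expression. CREBBP had the largest rise of any member. It measured 9.43 and 9.50 on the DMSO arrays of KARPAS-422 and 10.40 and 10.13 on the GSK126 arrays, with no overlap, and the change was 0.80 ± 0.09 (95% interval 0.62 to 0.98), adjusted p = 3.53e-08. The 3 tested probe sets were all higher there, at 0.80, 1.43 and 0.62, and 2 of them passed the test.

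The same gene fell in WSU-DLCL2, from 11.54 and 11.56 to 11.28 and 11.17. That change was -0.32 ± 0.09, adjusted p = 0.00591, with an adjusted p of 0.0837 without GSK126 replicate 2. The probe sets of CREBBP in WSU-DLCL2 ran from -0.41 to 0.20, and their mean missed the threshold (-0.18, adjusted p = 0.450). In the other 8 lines CREBBP lay between -0.10 (Toledo) and 0.16 (Pfeiffer and OCI-LY-19). 

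EP300 was more variable between replicate arrays than the other members, with an SD within groups of 0.17 against 0.04 to 0.12. In Pfeiffer it measured 10.09 and 9.79 in DMSO and 9.34 and 9.67 under GSK126, a change of -0.44 ± 0.16, adjusted p = 0.0451. That call was lost without DMSO replicate 1 (-0.29, adjusted p = 0.367) or GSK126 replicate 1 (-0.27, adjusted p = 0.383), and under 6 other alternatives. In OCI-LY-19 the values were 8.99 and 8.66 in DMSO and 9.30 and 9.37 under GSK126, a difference of 0.51 ± 0.16 that did not pass the test (adjusted p = 0.105). EP300 lay between -0.24 and 0.23 in the other lines. Its second probe set read -0.20 in Pfeiffer and did not pass the test.

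Of 9 other acetyltransferases, including KAT2A, KAT5 and KAT6A, 0 to 2 rose and 0 to 2 fell in any line. In KARPAS-422 2 of them rose and 0 fell, where 15.4% of all genes rose and 13.4% fell.

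SMARCA4 (BRG1) is the ATPase of SWI/SNF and ARID1A a DNA-binding subunit of its BAF form. SMARCA4 fell in 3 lines, KARPAS-422, SU-DHL-6 and Pfeiffer, whereas 6.07% of all genes fell in at least 3 lines. In KARPAS-422 it measured 12.23 and 12.18 in DMSO and 11.90 and 11.82 under GSK126. The groups did not overlap, and the change was -0.34 ± 0.08 (20.9% lower), adjusted p = 0.00124.

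In SU-DHL-6 SMARCA4 went from 12.66 and 12.86 to 12.54 and 12.45 (-0.26 ± 0.08, adjusted p = 0.0276). Pfeiffer gave 12.67 and 12.55 in DMSO and 12.42 and 12.32 under GSK126 (-0.24 ± 0.08, adjusted p = 0.0218). Neither pair of groups overlapped. The SU-DHL-6 call was lost without DMSO replicate 2 (-0.17, adjusted p = 0.318) or either GSK126 array (adjusted p = 0.0506 for replicate 1 and 0.196 for replicate 2). The Pfeiffer call was lost without DMSO replicate 1 (adjusted p = 0.208) or GSK126 replicate 2 (adjusted p = 0.187). WSU-DLCL2 read 0.17 ± 0.08, on the other side of 0, and did not pass the test (adjusted p = 0.106), although it did without DMSO replicate 1 (0.32, adjusted p = 0.00712).

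The 8 tested probe sets of SMARCA4 carried the falls more widely than the representative alone. In Pfeiffer 6 of 8 had fallen, against 9.48% of all single-symbol probe sets in that line, in KARPAS-422 5 of 8 (10.2%) and in SU-DHL-6 4 of 8 (2.28%), and 0 had risen in any line. Not all moved alike: 1 of 8 was higher in Pfeiffer (0.45), 2 of 8 in KARPAS-422 and 2 of 8 in SU-DHL-6. All 8 were higher in WSU-DLCL2, by 0.02 to 0.27, without passing the test. The share of all probe sets that were higher was not counted. Probe sets of 1 gene share arrays and often transcript sequence, so they are not replicates.

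ARID1A varied least between replicate arrays, with an SD within groups of 0.04. Pfeiffer alone passed the test, at 11.74 and 11.70 in DMSO and 11.51 and 11.48 under GSK126 (-0.22 ± 0.05, adjusted p = 0.00167), without overlap. The other 3 probe sets of ARID1A in Pfeiffer lay between -0.30 and -0.01, and 0 of them passed. In the other lines the representative lay between -0.12 (KARPAS-422) and 0.14 (SU-DHL-10), and the latter passed the test without DMSO replicate 1 (0.20, adjusted p = 0.0238). With arrays at equal medians ARID1A also fell in KARPAS-422 (-0.36, adjusted p = 3.89e-06) and in WSU-DLCL2 (-0.16, adjusted p = 0.0293).

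Of 20 other SWI/SNF subunits, 6 rose and 4 fell in KARPAS-422 (15.4% and 13.4% of all genes), 4 rose and 3 fell in WSU-DLCL2 (13.9% and 12.7%) and 2 rose and 3 fell in Pfeiffer (14.6% and 9.95%). The medians of the list lay between -0.10 and 0.10 over the 10 lines. In HT 1 rose and 2 fell (6.23% and 3% of all genes), in SU-DHL-6 2 rose and 1 fell (7.4% and 3.56%), in SU-DHL-4 1 rose (2.14%), and no more than 1 was called in either direction elsewhere.

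NSD2 (MMSET, WHSC1) dimethylates lysine 36 of histone H3, a mark that opposes Polycomb methylation of the same tail, and is overexpressed through an immunoglobulin translocation in a subset of myeloma. SETD2 adds the third methyl group at the same lysine over transcribed gene bodies. NSD2 was the member called in the most lines. The 250 bases before its start site are shown, from the RefSeq promoter table of GRCh38.p14, chr4:1871143-1871392, plus strand. A CCAAT word and an E2F word are in capitals, and whether either has a part in the NSD2 change was not tested.
NSD2 upstream: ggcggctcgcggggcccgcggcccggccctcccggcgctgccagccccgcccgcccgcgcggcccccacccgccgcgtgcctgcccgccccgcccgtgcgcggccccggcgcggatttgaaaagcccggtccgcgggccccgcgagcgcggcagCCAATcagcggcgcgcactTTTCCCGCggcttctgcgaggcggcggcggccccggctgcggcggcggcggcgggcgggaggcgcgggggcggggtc

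In Pfeiffer NSD2 measured 10.90 and 10.91 on the DMSO arrays and 10.26 and 9.90 on the GSK126 arrays. Both GSK126 arrays lay well below both DMSO arrays, and the change was -0.83 ± 0.09 (95% interval -1.02 to -0.63), adjusted p = 1.31e-07. KARPAS-422 followed, from 11.57 and 11.47 to 10.89 and 10.84, a change of -0.65 ± 0.09 (36.4% lower), adjusted p = 3.99e-06. In WSU-DLCL2 the level went from 11.28 and 11.52 to 10.81 and 10.88 (-0.56 ± 0.09, 32.1% lower, adjusted p = 4.46e-05). All DMSO arrays of these lines lay above all their GSK126 arrays.

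SU-DHL-10 was next, with 11.46 and 11.63 in DMSO and 11.23 on both GSK126 arrays (-0.31 ± 0.09, adjusted p = 0.0213). Here the call depended on single arrays: the adjusted p became 0.214 once DMSO replicate 2 was left out, 0.0943 once GSK126 replicate 1 was and 0.0824 once GSK126 replicate 2 was. NSD2 had thus fallen in 4 lines, where 2.6% of all genes fell in at least 4. The 4 lines were those with the lowest growth IC50, and all carry mutant EZH2, although the wild type line HT passed the test under 2 alternatives given below.

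The remaining lines did not pass the test. HT, wild type for EZH2, went from 10.94 and 10.91 to 10.69 and 10.71 (-0.23 ± 0.09, adjusted p = 0.155). SU-DHL-4 went from 11.19 and 11.40 to 11.18 and 10.997 (-0.21 ± 0.09, adjusted p = 0.338). In both the DMSO arrays lay above the GSK126 arrays.
SU-DHL-6 measured 11.24 and 11.12 in DMSO and 11.14 and 10.96 under GSK126, and these overlapped. DB measured 11.03 and 10.87 in DMSO and 10.86 and 10.84 under GSK126, and Toledo 11.45 and 11.38 in DMSO and 11.30 and 11.32 under GSK126. OCI-LY-19, from 11.31 and 11.38 to 11.29 and 11.24, had the smallest change, at -0.08 ± 0.09. With arrays at equal medians NSD2 also fell in HT (-0.34, adjusted p = 0.0162) and in SU-DHL-6 (-0.30, adjusted p = 0.0188). As the mean of all probe sets NSD2 fell in HT as well (-0.31, adjusted p = 0.00089), where all 6 probe sets were lower, so under these settings a wild type line is among those where NSD2 fell.

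All 6 probe sets of NSD2 passed the filter on low values. They were lower under GSK126 in 53 of 60 probe set-line pairs, and 15 pairs had fallen and 0 had risen. The share of all probe set-line pairs that were lower was not counted. As for SMARCA4, the probe sets share arrays and often transcript sequence, so they are not replicates. In Pfeiffer 5 of 6 had fallen, against 9.48% of all single-symbol probe sets, and the lowest read -1.04. KARPAS-422 had 4 of 6 fallen (10.2%), SU-DHL-10 4 of 6 (6.52%) and WSU-DLCL2 2 of 6 (10.6%). In WSU-DLCL2 the probe sets did not move alike, since 2 of them read 0.00 and 0.10. Toledo went against the representative probe set, with 4 of 6 NSD2 probe sets higher (up to 0.22) and a mean of all probe sets of 0.052.

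**Figure D3:**
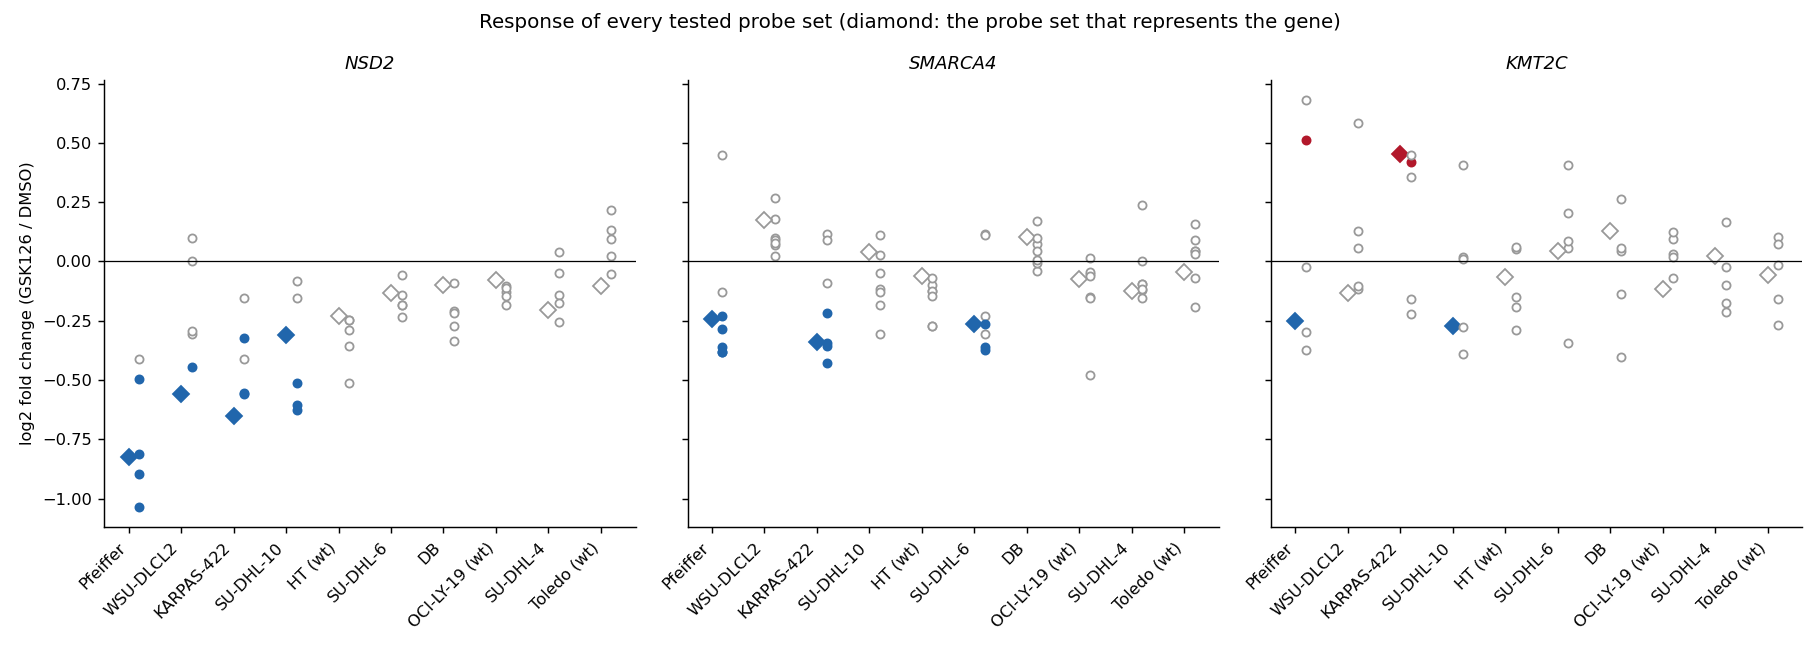
Log2 fold change under GSK126 of every tested probe set of NSD2 (6), SMARCA4 (8) and KMT2C (6) in each line, in order of growth IC50; diamonds are the probe sets that represent the genes and circles the others, filled blue where fallen, filled red where risen and open where the test was not passed. The NSD2 points all lie below 0 in Pfeiffer, KARPAS-422, SU-DHL-10, HT, SU-DHL-6, DB and OCI-LY-19. Those of KMT2C spread from -0.37 to 0.68 in Pfeiffer.

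SETD2 fell in Pfeiffer, from 10.99 and 10.95 to 10.78 and 10.58 (-0.29 ± 0.09, adjusted p = 0.0132), and in WSU-DLCL2, from 12.22 and 12.02 to 11.89 and 11.89 (-0.23 ± 0.09, adjusted p = 0.0474). Neither pair of groups overlapped. The Pfeiffer call was lost without DMSO replicate 1 (adjusted p = 0.0875) or GSK126 replicate 2 (-0.19, adjusted p = 0.220). The WSU-DLCL2 call was lost without DMSO replicate 1 (-0.13, adjusted p = 0.437) or either GSK126 array (adjusted p = 0.149 for replicate 1 and 0.146 for replicate 2). In the other lines SETD2 lay between -0.12 and 0.08. Its 3 probe sets kept together in direction in these lines: all were lower in Pfeiffer and WSU-DLCL2 and all higher in KARPAS-422, where 1 had risen (0.36 ± 0.11, adjusted p = 0.02002).

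DOT1L, which methylates lysine 79 of histone H3 in gene bodies, fell in SU-DHL-10 and WSU-DLCL2. SU-DHL-10 had 9.70 and 9.48 in DMSO and 9.11 and 9.19 under GSK126 (-0.44 ± 0.12, adjusted p = 0.0117). WSU-DLCL2 had 9.61 and 9.21 in DMSO and 9.001 and 9.032 under GSK126 (-0.39 ± 0.12, adjusted p = 0.0184). Neither overlapped, but the DMSO arrays of WSU-DLCL2 lay as far apart as the means of the groups. The SU-DHL-10 call was lost without DMSO replicate 1 (adjusted p = 0.170) or GSK126 replicate 1 (adjusted p = 0.0914). The WSU-DLCL2 call was lost without DMSO replicate 1 (-0.19, adjusted p = 0.395) or either GSK126 array (adjusted p = 0.0940 for replicate 1 and 0.0683 for replicate 2). A second tested probe set had fallen in WSU-DLCL2 (-0.68 ± 0.17, adjusted p = 0.00453) and read -0.07 in SU-DHL-10.

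Among 13 tested H3K36 and H3K79 partners, such as NSD1, NSD3 and the super elongation factor AFF4, 4 rose and 2 fell in KARPAS-422, 3 rose and 0 fell in Pfeiffer, and 0 rose and 4 fell in WSU-DLCL2. SU-DHL-10 had 2 risen and 1 fallen, and HT 1 of each. None was called in 5 or more lines. In Pfeiffer 14.6% of all genes rose and 9.95% fell, in WSU-DLCL2 13.9% and 12.7%, and in KARPAS-422 15.4% and 13.4%. The shares were 10.9% and 7.15% in SU-DHL-10 and 6.23% and 3% in HT. The counts of the list were not tested against these shares.

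DNA replication genes did fall beside NSD2. This list was chosen with earlier results of these data known, so its counts are descriptions. Of 27 tested, 27 fell in Pfeiffer (median -0.61), 26 in KARPAS-422 (-0.55), 20 in WSU-DLCL2 (-0.34), 11 in HT (-0.24), 6 each in SU-DHL-10 (-0.11) and SU-DHL-6 (-0.20), and 1 in SU-DHL-4 (-0.13). The shares of all genes that fell in the same lines were 9.95%, 13.4%, 12.7%, 3%, 7.15%, 3.56% and 0.455%. In DB, OCI-LY-19 and Toledo 0 fell, and in no line did 1 rise. NSD2 read -0.83, -0.65, -0.56, -0.23, -0.31, -0.13 and -0.21 in the first 7 of these lines. CDC6, which loads the replicative helicase, GINS2, a subunit of that helicase, and the DNA ligase LIG1 each fell in 6 lines, and the helicase subunit MCM7 fell in 5. Their lowest changes, all in Pfeiffer, were -0.91, -0.98, -0.74 and -0.95. What part the fall of the replication genes has in the NSD2 change was not tested.

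**Figure D4:**
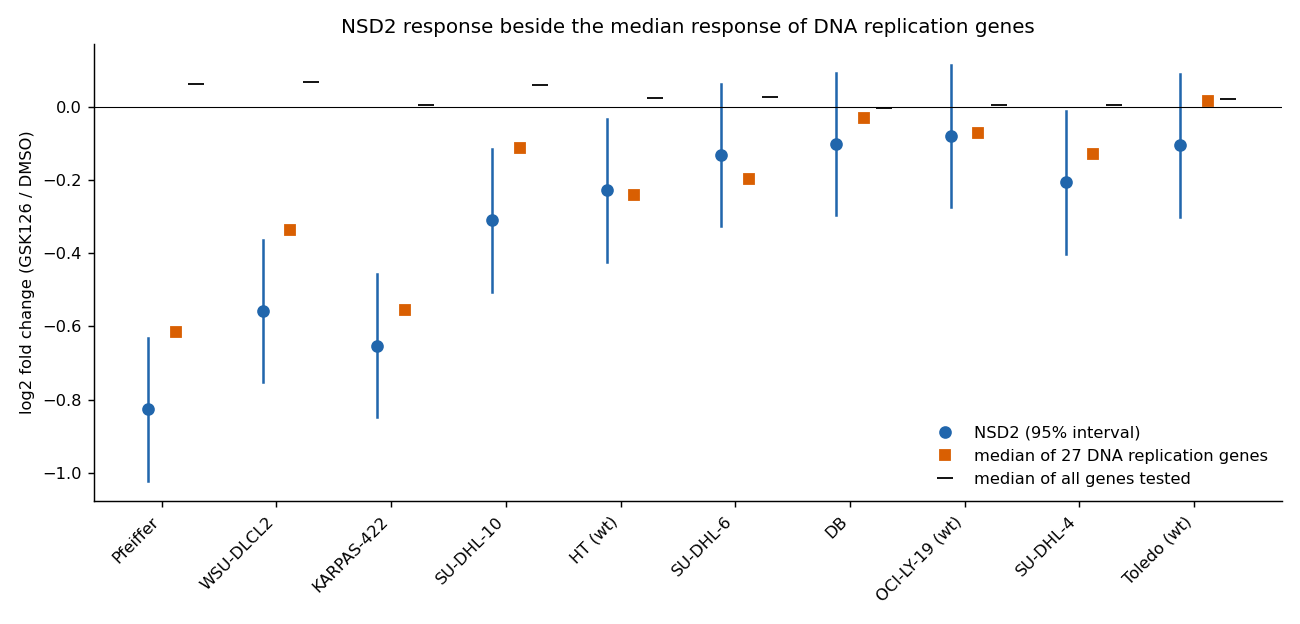
Log2 fold change of NSD2 under GSK126 (blue circles with the 95% interval of the fit), the median of the 27 tested DNA replication genes (orange squares) and the median of all genes tested (black dashes) in each line, in order of growth IC50. NSD2 runs from -0.83 in Pfeiffer to -0.08 in OCI-LY-19 and the replication median from -0.61 in Pfeiffer to 0.02 in Toledo.

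Words bound by E2F factors, which drive S-phase genes, were searched as TTTCCCGC, TTTCGCGC, TTTGCCGC and TTTGGCGC on both strands of the window from 250 bases before to 50 after the start site. RefSeq promoters were found for 9 of the 10 members, with 11 windows in all, and for 24 of the 28 listed replication genes, with 32 windows. NSD2 held the only E2F word among the 11 windows, at -77 to -70 from its start, against 3.31% of all 35116 windows and 17 of 32 windows (53.1%) of the replication genes. The same NSD2 window held the only CCAAT among the members, at -96 to -92, 14 bases before the E2F word. CCAAT was present in 34.6% of all windows and 62.5% of those of the replication genes. The ETS word CCGGAAG and the palindromic NRF1 motif, searched in the same way, were in 0 of the 11 windows and in 10.3% and 1.24% of all. These are letter matches with no measurement of binding.

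The E2F word of NSD2 is set beside those of 3 replication genes that fell in at least 5 lines, each with 11 bases on either side, read along the gene's own strand and with the word in capitals. Shown are, of such genes with a promoter window, those whose E2F word lies, with its flanks, wholly before the start site. The MCM7 and GINS2 words lie on the opposite strand. NSD2 is at chr4:1871305-1871334 (plus), MCM7 at chr7:100101566-100101595 (minus), GINS2 at chr16:85688967-85688996 (minus) and LIG1 at chr19:48170440-48170469 (minus), all GRCh38.p14. The selection shows matches only: MCM7 held the word in 1 of its 3 windows, and CDC6 held it past its start. CHAF1A, which also fell in 5 lines, held none. MCM4 fell in 5 lines as well (-0.97 in Pfeiffer) but had 0 windows, so it was not searched.
NSD2: cggcgcgcactTTTCCCGCggcttctgcga
MCM7: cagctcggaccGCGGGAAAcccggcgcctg
GINS2: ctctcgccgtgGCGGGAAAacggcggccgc
LIG1: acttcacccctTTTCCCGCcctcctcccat

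Across lines, the line was taken as the replicate. In the mean of the 7 mutant lines NSD2 was the only member called, at -0.40 ± 0.08 (95% interval -0.58 to -0.22), adjusted p = 0.0144. In that mean 9.95% of all genes were called. NSD2 was lower in 7 of the 7 lines by its representative probe set, and the share of all genes lower in all 7 was not counted. DOT1L followed at -0.18 ± 0.07 without passing the adjusted threshold (adjusted p = 0.138). The means of the other 8 lay between -0.09 (SMARCA4) and 0.10 (CREBBP). With arrays at equal medians 5 members were called in the mutant mean, ARID1A, SMARCA4, NSD2, SETD2 and DOT1L, where 21.7% of all genes were called.

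In the 3 wild type lines NSD2 averaged -0.14 and DOT1L -0.18, and 0 members passed the test. Of all genes, 0% were called in the wild type mean and 599 had an unadjusted p under 0.05. The mutant mean of NSD2 was below the wild type mean by a difference of -0.26 ± 0.15 (95% interval -0.59 to 0.07, adjusted p = 0.992). In that comparison 0 members and 0% of all genes were called by limma, and 599 genes had an unadjusted p under 0.05. Within the sets of lines that share an R tag in the labels, whose meaning is not given, the difference for NSD2 was -0.63 (R6), -0.07 (R7) and -0.05 (R8). Each tag holds 1 wild type line, beside 2 (R6), 4 (R7) and 1 (R8) mutant lines. In R6 Pfeiffer and KARPAS-422 stand against Toledo, the line with the highest growth IC50, so genotype and sensitivity cannot be told apart there.

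The response of NSD2 became smaller with rising growth IC50, by a slope of 0.28 ± 0.07 per 10-fold IC50 (unadjusted p = 0.00193 by limma), which did not pass the adjusted threshold (adjusted p = 0.249, and 0.159 to 0.571 over the alternatives). SETD2 had a slope of 0.11 ± 0.05 (adjusted p = 0.440). The count was 0 members called for a slope, against 0.00659% of all genes, and 1629 genes had an unadjusted p under 0.05.

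Whether a member's response differed among the 10 lines was tested by a moderated F over the line responses, a test added after the data were seen. It passed for 7 members, KMT2D, KMT2C, KMT2A, CREBBP, ARID1A, SMARCA4 and NSD2, against 38.7% of all genes. CREBBP had the smallest adjusted p, 7.00e-06, followed by NSD2 (0.000128) and KMT2C (0.000283). EP300 (0.0737), SETD2 (0.170) and DOT1L (0.324) did not pass.

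All 10 members differed among lines in DMSO by the moderated F test, as did 84.5% of all genes. The widest range of line means was that of CREBBP, 2.45 on the log2 scale or 5.46-fold, from 9.47 in KARPAS-422 to 11.92 in HT. The representative probe set of NSD2 had the narrowest, 0.63 or 1.55-fold, which 2.90% of all genes did not exceed. Other NSD2 probe sets spread wider in DMSO, the widest from 7.02 (HT) to 9.48 (SU-DHL-10), and 4 of the 5 correlated with the representative at 0.398 to 0.544 over the 10 line means.

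In the order of CREBBP levels KARPAS-422 was followed by SU-DHL-10 (10.58), then by SU-DHL-6, DB and Pfeiffer at 11.11 to 11.14, whose arrays overlapped from one line to the next, and HT (11.92) and Toledo (11.89) at the top overlapped as well. KMT2C was lowest in Pfeiffer (9.85) and KARPAS-422 (10.37), and the other 8 lines lay between 11.05 and 11.69. KMT2D was lowest in Pfeiffer as well, at 10.16, and highest in SU-DHL-4 (11.86) and Toledo (11.91), which overlapped. KMT2A ran from 9.37 in KARPAS-422 to 11.15 in HT, and HT stood 0.53 above the next line, OCI-LY-19.

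EP300 was lowest in OCI-LY-19 (8.83) and KARPAS-422 (8.96), whose arrays overlapped, and highest in HT (10.34). That order turned with the probe set, since the other EP300 probe set was lowest in HT (8.68) and read 9.32 in OCI-LY-19 (r = 0.352 with the representative over the 10 line means). SMARCA4 was highest in DB (13.40) and SU-DHL-4 (13.37), both 0.52 or more above the next line, and lowest in KARPAS-422 (12.20). ARID1A was highest in Toledo (12.68), 0.48 above KARPAS-422, and the other lines lay between 11.59 and 12.21. SETD2 was lowest in Pfeiffer (10.97) and DB (11.13), and DOT1L ran from 8.76 in SU-DHL-6 to 9.62 in OCI-LY-19. The other tested DOT1L probe set, nearly as bright, read 9.36 in SU-DHL-6 and 8.63 in OCI-LY-19, the opposite order (r = -0.344 over the 10 line means). The arrays of NSD2 overlapped between most neighbours in its order, from Pfeiffer (10.91), HT (10.93) and DB (10.95) at the bottom to KARPAS-422 (11.52) and SU-DHL-10 (11.54) at the top.

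**Figure D5:**
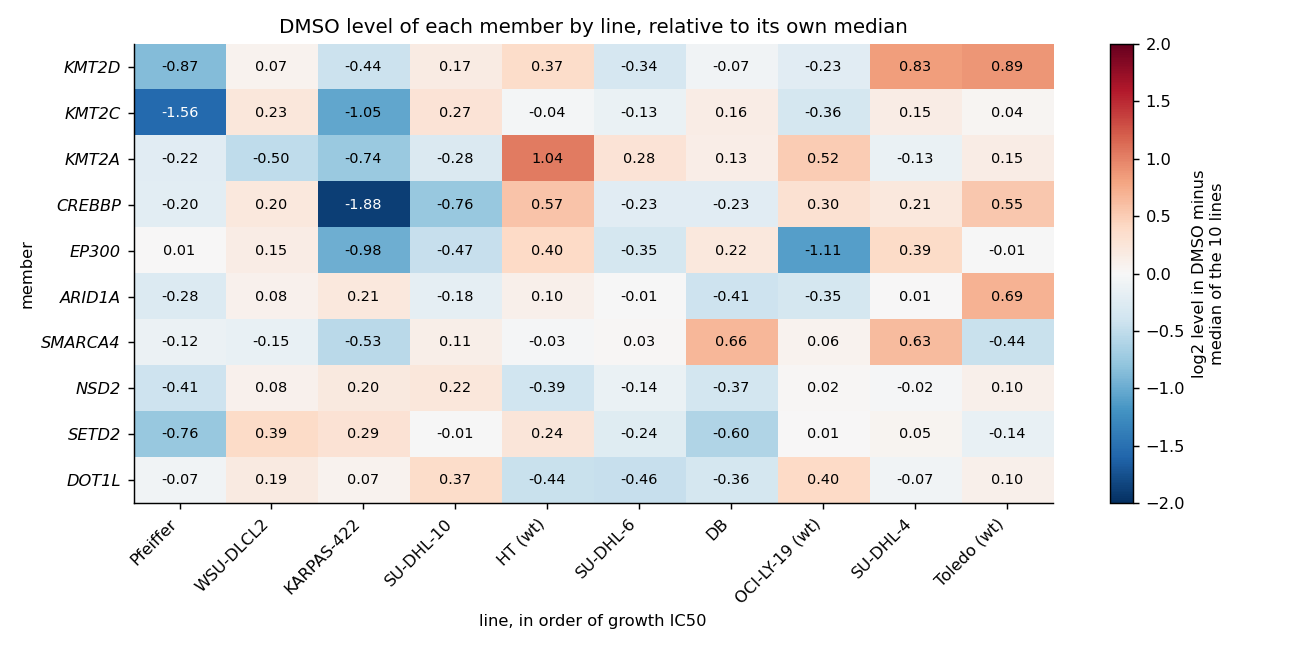
DMSO level of each gene (rows) in each line (columns, in order of growth IC50), as the log2 difference from that gene's median over the 10 lines. Blue cells are below and red cells above the gene's own median. The lowest cell is CREBBP in KARPAS-422, at -1.88. Pfeiffer is below the median for 9 of the 10 genes, a count for which no share of all genes was taken.

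Pfeiffer had the lowest level of the 10 lines for 4 members (KMT2D, KMT2C, NSD2 and SETD2), against 10% of all genes. For NSD2 the arrays of Pfeiffer overlapped those of HT, and another NSD2 probe set was lowest in HT. KARPAS-422 had the lowest for 3 (KMT2A, CREBBP and SMARCA4), against 13.3% of all genes. It was among the lowest 2 lines for 6 members, a count for which no share of all genes was taken. Under GSK126 CREBBP in KARPAS-422 was still the lowest of the 10 lines, at 10.26 against 10.70 in SU-DHL-10, and KMT2D moved there from the second lowest place to the fourth.

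By EZH2 genotype, 0 members differed in DMSO, against 0.0527% of all genes (limma, 10 lines), and 1178 genes had an unadjusted p under 0.05. KMT2A was lower in the mutant lines by the largest margin relative to its error, -0.78 ± 0.28 (mutant mean 9.90, wild type mean 10.68, adjusted p = 0.560). Within R tags, each with 1 wild type line, the KMT2A difference was -0.63 (R6), -1.24 (R7) and -0.24 (R8). CREBBP was -0.89 ± 0.40 (10.93 against 11.82, adjusted p = 0.645), and -1.59, -0.72 and -0.54 within the same tags. The other 8 members lay between -0.44 (KMT2D) and 0.22 (SMARCA4).

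For NSD2 and CREBBP the genes with the most similar vehicle pattern were sought by Pearson's r over the 10 DMSO line means. Those of NSD2 were MCF2 (0.919), MBNL3 (0.916), LEMD1 (0.907), BANK1 (0.90), a B-cell scaffold protein, and SLC15A1 (0.897). For CREBBP they were GRAPL-AS1 (0.948), IGHV5-78 (0.944), IFT27 (0.944), CCSAP (0.928) and RAB4A (0.927). With 10 points and 15179 genes to choose from, these are descriptions, and the points share arrays.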

How the data were processed

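RNA from 10 DLBCL lines was hybridised to 40 arrays with 54675 probe sets. The deposited values are log2 signals made by the authors with MAS5, per the submitters' processing notes (version not given in the sources used here), and the 2% trimmed mean of every array was 500 on the linear scale. Of the probe sets, 41091 carry 1 gene symbol, 1801 several and 11783 none, controls included. Signals were taken as log2(signal + 17.72), each gene was represented by its brightest single-symbol probe set over all arrays, and genes had to exceed the median of the array on 2 or more arrays to be tested (15179 of 19775). The pseudocount makes fold changes of low genes smaller than on the raw scale.

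The main fit used limma 3.58.1 in R 4.3.3 with the 20 line-by-treatment means, an intensity trend, 20 residual and 6.99 prior degrees of freedom, and Benjamini-Hochberg adjustment over the 15179 genes, with calls at an adjusted p under 0.05. Across lines, each line's mean difference was 1 replicate. Precision is limited by 2 arrays per group. All adjusted p-values in the text are from limma unless a sentence says otherwise. The scripts were tested on simulated data.

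All members are described, related genes are given by counts with values for at most 4 per list that were called in 5 or more lines, and likeness was ranked for the member called in most lines and the one with the widest DMSO range. The members and lists were chosen with earlier results of these data known. All 10 members matched the RefSeq gene table by symbol, and promoter windows came from RefSeq (GRCh38.p14). DOT1L was not matched there. Alternatives were a pseudocount of 1, quantile normalization, equal array medians, no filter, the mean of a gene's probe sets, no trend, the replicate number as a block, each line alone, each array or line left out, and the R tag as a term. The fit on single probe sets (30197 tested) and the F test of the response among lines were added after seeing the data. Same-numbered DMSO and GSK126 arrays did not deviate together, so the numbers were not taken as pairs.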

Additional observations from a re-analysis of the deposited data

Results flagged for a closer look

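The response of EP300 in Pfeiffer, -0.44, stood apart from the other 6 mutant lines. The nearest line read 0.03 and the far end of the group 0.23, which puts 0.702 of the whole range between Pfeiffer and its neighbour. This was 1 of 20 such tests, and chance alone gives about 1 in 20.

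KMT2C and CREBBP had lines called in opposite directions within the mutant genotype. KMT2C in KARPAS-422 exceeded KMT2C in Pfeiffer by 0.70 and in SU-DHL-10 by 0.73 on the log2 scale, and CREBBP in KARPAS-422 exceeded CREBBP in WSU-DLCL2 by 1.12. The pairs of lines were picked because 1 was called risen and the other fallen, so these differences are descriptions and no p is given for them. For KMT2C the opposite directions rest on the representative probe set. As the mean of all probe sets it read 0.22 in KARPAS-422, 0.042 in Pfeiffer and -0.084 in SU-DHL-10, none of them called, and both falls were lost on leaving out single arrays. For CREBBP the fall in WSU-DLCL2 was lost as the mean of all probe sets (-0.18, adjusted p = 0.450) and without GSK126 replicate 2 (adjusted p = 0.0837).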

How the results depend on the processing

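Of the 20 called gene-line pairs, 5 kept their direction and call under every alternative: NSD2 in Pfeiffer, WSU-DLCL2 and KARPAS-422, CREBBP in KARPAS-422 and SMARCA4 in KARPAS-422. The other 15 lost the call under at least 1, and 14 of the 80 pairs not called passed under at least 1. KMT2C in Pfeiffer turned to 0.042 as the mean of all probe sets. The count of called pairs was 12 with each line fitted alone, 30 with equal medians, and 14 to 18 under the other settings. It lay between 15 and 20 with 1 array left out. NSD2 in SU-DHL-10 missed the threshold with quantile normalization (adjusted p = 0.0596). In the mutant mean 5 members were called with equal medians against 1. NSD2 stayed called there without any single line, at -0.45 to -0.33. With the replicate number as a block 18 pairs were called, and EP300 in Pfeiffer (adjusted p = 0.0633) and SETD2 in WSU-DLCL2 (adjusted p = 0.0882) were lost, while the deviations of same-numbered arrays correlated between -0.0464 and 0.0679. Equal medians lowered the median fold change of all genes by 0.05 in some lines to 0.21 in KARPAS-422. The causes of these shifts were not tested, and 2 arrays per group limit the precision.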
